A study of Mus musculus with 12 samples.

Results

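The 6 genes Cdkn2a, Cdkn2b, Cdkn1a, Cdkn1b, Trp53 and Mdm2, which belong to the retinoblastoma and p53 pathways that hold cell division and reprogramming in check, were examined for chromatin accessibility. Members were the peaks and the listed differential intervals that overlapped each gene body extended by 20 kb on each side (GENCODE M21 annotation, GRCm38). Cdkn2a and Cdkn2b are neighbours and their windows overlap, so the 6 genes gave 5 loci. These loci held 54 of the 273256 intervals made by merging the peaks of all groups: 11 at Cdkn2a and Cdkn2b, 10 at Cdkn1a, 8 at Cdkn1b, 10 at Trp53 and 15 at Mdm2.

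Omni-ATAC-seq, in which the transposase Tn5 cuts open chromatin and leaves sequencing adaptors there, was used to measure accessibility, with 12 libraries of 50000 cells each. All libraries were made from Cas9 TNG MKOS mouse embryonic fibroblasts (MEFs) at passage P2, labelled strain 129 and taken from embryos at E12.5. The fibroblasts derived from chimeric embryos made with 1 embryonic stem cell line, which carries Cas9 in Rosa26, a Nanog-GFP reporter and a doxycycline-inducible cassette of Myc, Klf4, Oct4 and Sox2 followed by mOrange. Control cells received a non-targeting sgRNA and KO cells an sgRNA against Zfp266, a KRAB zinc finger protein, so that KO stands for a population of edited cells rather than a clone. MEF groups stayed in MEF medium for the 96 h after transduction, whereas reprogramming groups were moved after 24 h to ES cell medium that contained doxycycline (300 ng/ml) and vitamin C (10 µg/ml) and had 72 h of factor expression. Per the study's methods, the reprogramming cells were plated among an excess of wild-type 129 MEFs and the MEF groups were not, so that co-culture and induction cannot be told apart between them. Cells were sorted before transposition, for mOrange in the reprogramming groups. Each of the 4 groups (MEF control, MEF KO, reprogramming control, reprogramming KO) had 3 libraries. Nothing in the labels says that they came from separate cultures, so p-values measure the spread between these libraries, which may be technical.

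The Cdkn2a gene has 2 start sites. Transcripts from the inner one encode p16Ink4a, which with the Cdkn2b product p15Ink4b blocks the cyclin D kinases that inactivate the retinoblastoma protein, and transcripts from the outer one encode p19Arf, which inhibits Mdm2. Mdm2 is the ubiquitin ligase that degrades p53, the product of Trp53, and p53 switches on both Cdkn1a, which encodes the kinase inhibitor p21, and Mdm2 itself. Cdkn1b encodes p27, a kinase inhibitor of the same family as p21. Fibroblasts in culture raise several of these genes as they approach senescence, and loss of Trp53 or Cdkn1a is known to ease reprogramming.

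The sequences that the results turn on are printed first, from the RefSeq copy of GRCm38.p6, 5′ to 3′ on the plus strand of the genome unless stated otherwise, with capitals for the motif named. Motifs were searched on both strands as TGAGTCA or TGACTCA for AP-1, as ATTTGCAT for OCT factors, as the KLF words GGGCGGGG, GGGCGTGG, GGGTGGGG and GGGTGTGG, and by name for SOX factors and p53. The intervals with the highest fold enrichment among those open only in MEF groups are shown for Cdkn1b (chr6:134904010-134904209) and Cdkn2a (chr4:89257785-89257984), with AP-1 words in capitals. The interval open only in reprogramming groups upstream of the Arf start is shown at chr4:89297775-89298074, with 1 KLF and 1 SOX word in capitals.
Cdkn1b upstream: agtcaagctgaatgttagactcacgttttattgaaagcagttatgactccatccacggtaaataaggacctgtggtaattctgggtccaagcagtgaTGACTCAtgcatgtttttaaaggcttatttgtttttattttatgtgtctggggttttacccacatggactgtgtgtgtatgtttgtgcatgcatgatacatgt
Cdkn2a downstream: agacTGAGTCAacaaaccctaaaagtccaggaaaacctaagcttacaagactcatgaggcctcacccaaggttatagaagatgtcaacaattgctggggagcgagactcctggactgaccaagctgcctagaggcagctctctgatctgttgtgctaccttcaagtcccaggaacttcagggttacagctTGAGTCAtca
Cdkn2a upstream: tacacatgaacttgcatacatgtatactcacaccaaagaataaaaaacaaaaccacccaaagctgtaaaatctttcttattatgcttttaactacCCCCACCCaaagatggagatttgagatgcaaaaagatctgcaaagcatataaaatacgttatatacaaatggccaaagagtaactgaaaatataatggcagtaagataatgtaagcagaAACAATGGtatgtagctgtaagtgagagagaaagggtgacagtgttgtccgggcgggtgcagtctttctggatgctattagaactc
A pair of p53-like elements, 1 position off the consensus each, lay in open intervals at Cdkn1a (chr17:29090908-29090967) and upstream of Mdm2 (chr10:117717716-117717775).
Cdkn1a upstream start: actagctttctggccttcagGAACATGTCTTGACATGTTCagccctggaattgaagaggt
Mdm2 upstream: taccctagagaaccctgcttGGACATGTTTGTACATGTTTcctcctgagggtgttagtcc
The promoters of the 2 Cdkn2a starts are shown because the gene has 2 products with separate starts, whose values are compared, and are printed on the minus strand, which is the strand of the gene, at chr4:89294570-89294869 for Arf and chr4:89282143-89282442 for Ink4a, with KLF words in capitals.
Arf promoter: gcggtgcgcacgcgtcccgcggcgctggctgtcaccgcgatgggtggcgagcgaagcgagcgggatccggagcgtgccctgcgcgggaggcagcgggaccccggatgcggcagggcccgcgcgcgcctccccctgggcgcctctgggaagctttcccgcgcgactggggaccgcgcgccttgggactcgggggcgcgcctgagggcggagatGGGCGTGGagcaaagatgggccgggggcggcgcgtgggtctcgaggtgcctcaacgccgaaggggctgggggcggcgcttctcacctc
Ink4a promoter: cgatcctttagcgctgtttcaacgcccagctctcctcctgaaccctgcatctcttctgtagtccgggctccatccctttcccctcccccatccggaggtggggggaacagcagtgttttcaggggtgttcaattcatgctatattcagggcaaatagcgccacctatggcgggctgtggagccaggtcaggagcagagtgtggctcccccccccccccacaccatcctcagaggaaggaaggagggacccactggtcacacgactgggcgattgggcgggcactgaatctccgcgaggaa

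The peak lists held 161687 to 170135 peaks a group, deposited as 1 list of merged libraries a group, so that fold enrichment over the local background carries no replicate error. Libraries held 33936 to 86490 reads in the 480 intervals listed for MEFs and 141616 to 324141 in the 1608 listed for reprogramming. These totals cover the listed intervals alone and are not the sequencing depth. No library was counted as a copy of another, since the spread between replicate pairs exceeded that of counting (chi-square per degree of freedom 1.17 to 1.77). All 6 fibroblast markers had a peak over a start site in every group, with a median fold enrichment of 2.89 in MEF control and 2.29 in reprogramming control (4 of 6 lower in the latter, Col1a2 and Prrx1 higher). Of 4 early epithelial markers, 3 had a start-site peak in MEFs and 4 in reprogramming, where Krt8 was added. Between MEF and reprogramming control Cdh1 (4.65 and 2.78) and Epcam (3.94 and 3.33) were lower and Krt18 (2.01 and 3.04) was higher. Of 4 pluripotency markers, Zfp42 had peaks in reprogramming alone (8.75 in control), Pou5f1 in MEFs alone (2.23 in control), Esrrb in all groups (4.36 in MEF control and 2.74 in reprogramming control) and Nanog in none. Endothelial (0 of 2 genes) and leukocyte (0 of 2 genes) markers had no start-site peak in any group.

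**Figure D1:**
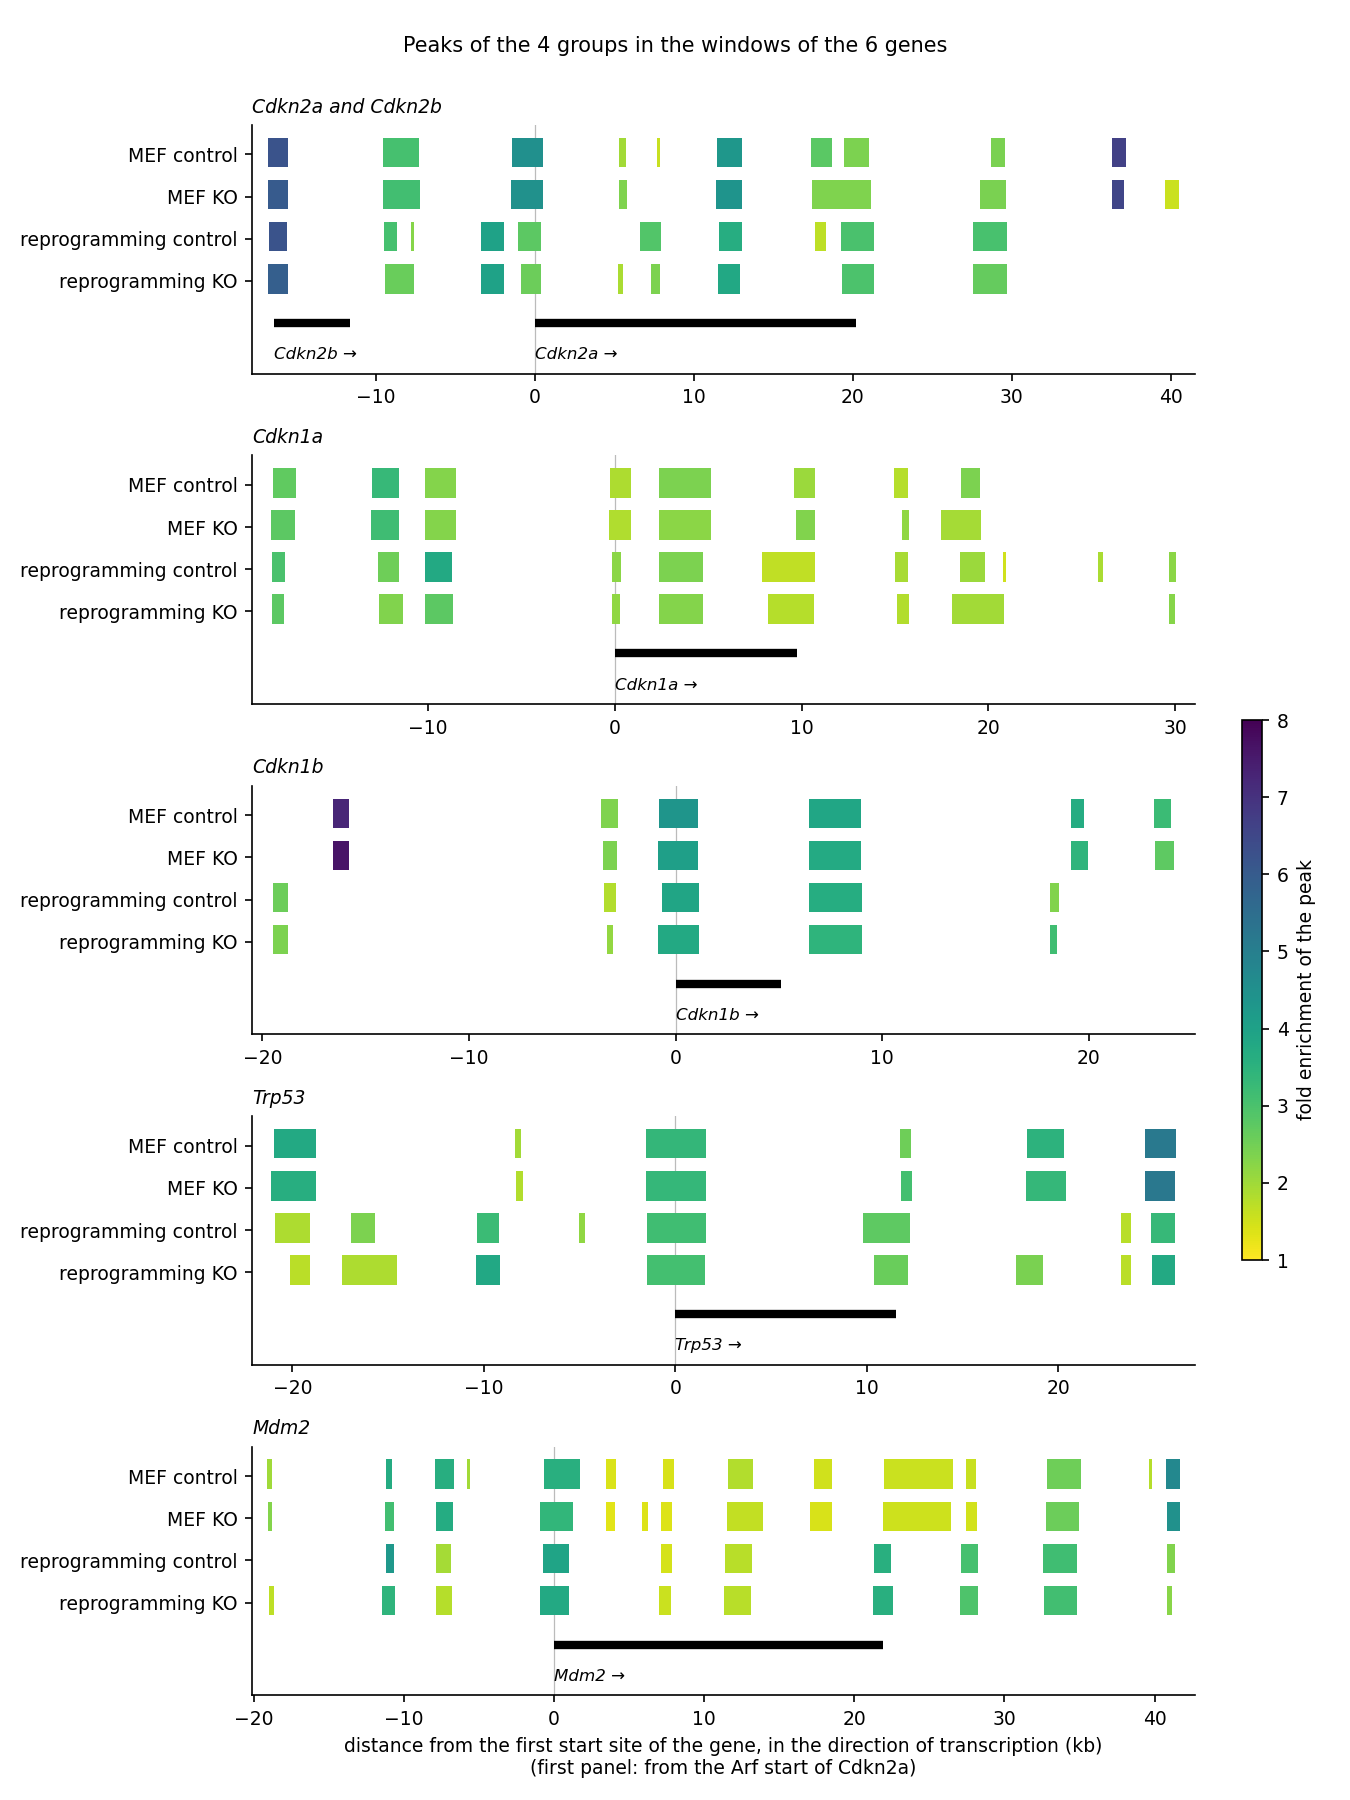
Peaks of the 4 groups in the 5 loci. The x axes give the distance in kb from the first start site in the direction of transcription, each row is 1 group, boxes are broad peaks coloured by fold enrichment and black bars are the gene bodies. The Trp53 peak at -10.4 to -9.15 kb is present in the reprogramming rows alone, and the darkest box, upstream of Cdkn1b, in the MEF rows alone.

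The first comparison asked whether loss of Zfp266 changed accessibility at these loci within each context. In MEFs, no interval in any of the 5 loci was among the intervals listed as different between KO and control. In reprogramming cells, 1 interval was listed, upstream of Trp53, and it was more open in KO. Over all 273256 intervals, 0.175% were listed as more open in KO in MEFs and 0.557% in reprogramming, and a count of 0 or 1 of 54 cannot be set apart from those shares. A listed interval fell in the window of 0 of 6 members in MEFs (2.97% of 21938 protein-coding genes) and of 1 of 6 in reprogramming (8.47%). The nearest listed intervals of the other members lay outside their windows, and no background of such distances was computed. For Cdkn1a the closest was 87383 bp from the gene body in reprogramming and 133967 bp in MEFs, for Cdkn1b 166009 and 148356 bp, for Mdm2 204090 and 2876354 bp, and for Cdkn2a 2420704 and 2594321 bp.

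The Trp53 upstream interval (Interval_42561, chr11:69569965-69571211, 1247 bp) lies 9148 bp upstream of the main Trp53 start, in an intron of Wrap53, the gene that is transcribed away from Trp53 on the other strand. Raw counts in the reprogramming control libraries were 126, 162 and 90 reads, and those in the KO libraries were 245, 202 and 148. The lowest KO library was below the highest control library in raw reads. Divided by the size factors of the libraries, the normalised counts were 140.8, 147.0 and 117.5 in control and 224.1, 248.5 and 235.0 in KO. On this scale every KO library was above every control library. Means on the normalised scale were 135.1 ± 15.6 for control and 235.9 ± 12.2 for KO (SD, n = 3 each), a ratio of 1.75. By edgeR's quasi-likelihood test the log2 fold change of KO over control was 0.78 ± 0.11 (SE), with a Benjamini-Hochberg adjusted p of 7.58e-10 over 273256 tests; with TMM factors computed over the listed intervals alone, nearly all of which were more open in KO, the sign turned and the log2 value was -0.19. DESeq2 gave 0.79 and an adjusted p of 5.37e-06. The interval was listed because it differed in these same 6 libraries, so the edgeR test describes its size and spread and is no independent evidence. An exact two-sided permutation test on the normalised counts gave p = 0.10, the smallest p that 3 against 3 libraries allow. Among the 1608 listed intervals its KO to control ratio ranked 1046, below the median of the more open ones (2.05), and its mean count stood above 73.7% of them. A smaller share of cells with the site open and a lower accessibility per cell cannot be told apart in bulk libraries.

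**Figure D2:**
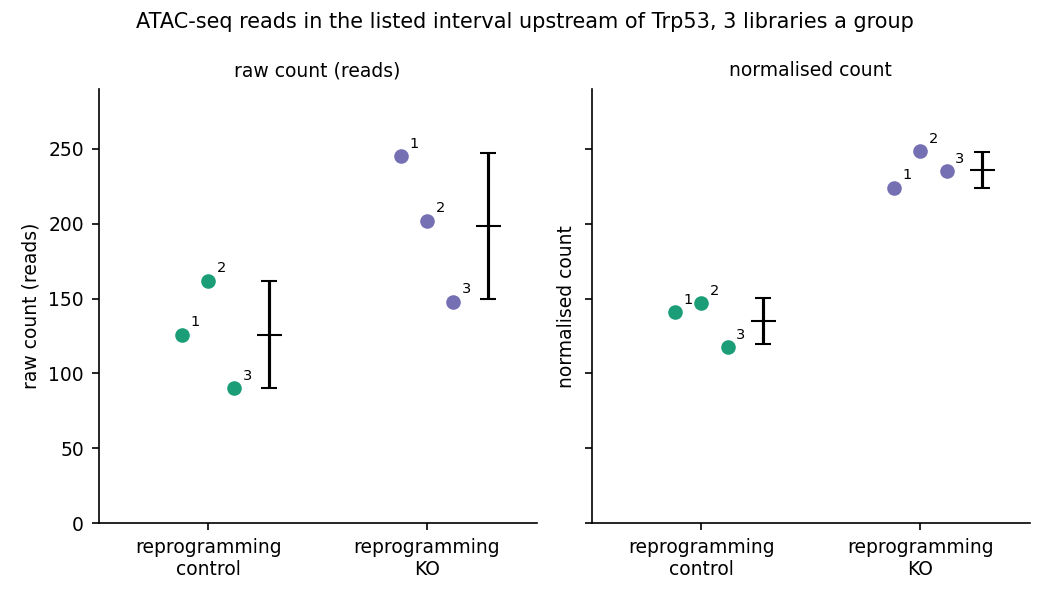
Reads in the interval 9148 bp upstream of Trp53 in the reprogramming libraries. The left panel gives raw counts and the right panel normalised counts, points are libraries with their replicate number, and bars are mean ± SD (n = 3); normalised counts of 117.5 to 147.0 in control and 224.1 to 248.5 in KO do not overlap, whereas raw counts do, and with TMM factors over the listed intervals alone the difference turns to a log2 value of -0.19.

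In MEFs the same interval had no peak in control or KO. The mean normalised count of the 6 MEF libraries, obtained from the deposited mean over 12 libraries, was 7.98, against 185.5 over the 6 reprogramming libraries. Peaks were thus called there in reprogramming alone and in both genotypes, with a fold enrichment of 3.22 in reprogramming control and 3.81 in KO. Repeat-masked bases made up 37.9% of the interval, against a median of 14.1% over all intervals.

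By fold enrichment of the peaks, no member interval passed a rule of 1.5 times between KO and control, the listed one included, whose ratio was 1.18. Of the 40 member intervals with a peak in both MEF groups, 0 differed by at least 1.5 times either way, beside 0.186% of all such intervals. In reprogramming it was 0 of 38, beside 0.344%. The log2 ratios of KO over control ran from -0.30 to 0.28 in MEFs and from -0.44 to 0.44 in reprogramming. These ratios compare 1 merged peak list with another and have no replicate check. The lowest value came from a site 8495 bp upstream of Cdkn1a (3.76 in reprogramming control and 2.77 in KO), and the highest from a small site 18092 bp downstream of the Cdkn1b start in the Lockd transcript (2.32 and 3.16). Neither passed the rule.

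For each window and context, the interval whose KO to control ratio lay farthest from 1, in either direction, was also read. At Cdkn1a in MEFs it was a site 7702 bp past the 3′ end, lower in KO (2.37 in control and 1.93 in KO), and at Cdkn1b in MEFs a site in Lockd, also lower (3.23 and 2.74). At Cdkn2a and Cdkn2b the values were 2.80 in MEF control against 2.34 in MEF KO in the 3′ part of Cdkn2a, where control had separate peaks, the one over the gene end at 2.37, and KO a single peak across them, and 2.89 in reprogramming control against 2.38 in reprogramming KO in the intron between the Arf and Ink4a starts. At Trp53 the 3′ end had 2.55 in MEF control and 3.08 in MEF KO, and a site in Wrap53 14543 bp upstream had 2.38 in reprogramming control and 1.87 in KO. At Mdm2 a site 10612 bp upstream was the farthest from 1 in both contexts and lower in KO, with 3.72 and 3.12 in MEF control and KO and 4.28 and 3.46 in reprogramming control and KO.

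A peak was called in KO but not control at 2 of 45 intervals in MEFs (background 5.77%) and at 3 of 43 in reprogramming (7.50%). The reverse held for 3 of 45 in MEFs (7.57%) and 2 of 43 in reprogramming (11.0%). These were weak peaks, with fold enrichments of 1.36 to 2.40. The highest in KO alone was 6294 bp past the 3′ end of Trp53, in Atp1b2, with 2.40 in reprogramming KO, where both MEF groups also had a peak (3.49 and 3.34). The highest in control alone was 4724 bp upstream of Trp53, with 2.17 in reprogramming control. At Cdkn2a and Cdkn2b the KO-only peaks had 1.55 in MEFs and 1.89 in reprogramming, and at Mdm2 1.36 and 1.70. Control-only peaks had 1.98 at Mdm2 in MEFs and 1.90 at Cdkn1a in reprogramming.

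The second comparison asked how the loci differed between fibroblasts and cells at 72 h of reprogramming. Most open sites at the members were shared. Of the 54 intervals, 30 (55.6%) had a peak in all 4 groups, against 24.7% of all intervals, while 7 (13.0%) were open in both MEF groups alone and 7 (13.0%) in both reprogramming groups alone, against 27.5% and 27.4%. The other 10 had mixed patterns. Member intervals were also wider than others (median 1258.5 bp, against 732 bp), and width moves with the number of groups that share a peak (median 1429 bp for intervals with peaks in all 4 groups). The part of width in these shares was not tested.

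Each of the 6 genes had at least 1 start site with a peak in every group. Of 21938 coding genes, 69.1% to 69.5% had a start-site peak, depending on the group. At the members, 3 annotated internal starts, 1 each of Cdkn1a, Mdm2 and Trp53, had no peak in any group. Fold enrichment over the start of Cdkn2b was 6.21 (control) and 6.03 (KO) in MEFs and 6.20 and 5.91 in reprogramming, the highest of the members in each group. At Cdkn1b the values were 4.35, 4.08, 3.88 and 3.77 in the same order. Mdm2 had 3.59, 3.40, 3.90 and 3.76. None of these 3 start sites differed by 1.5 times between any pair of groups compared. At Trp53 the peak, shared with the start of Wrap53, had 3.37, 3.33, 3.15 and 3.10. Cdkn1a was lowest, with 2.38, 2.23, 2.37 and 2.30 at its main start and 1.86, 1.83, 2.21 and 2.17 at the upstream start. Among coding genes with a start-site peak in MEF control, 78.7% were below Cdkn2b and 3.57% below Cdkn1a. The order of neighbouring genes has no replicate error to be read against.

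**Figure D3:**
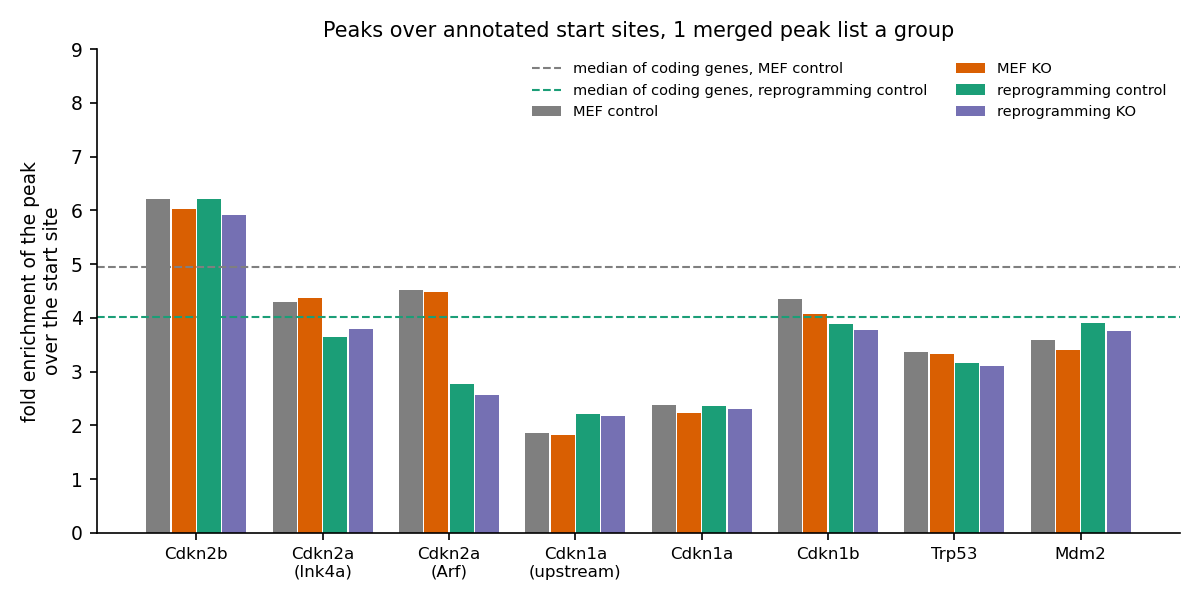
Fold enrichment of the peak over each start site. Bars are the 4 groups (1 merged peak list each, no error available), and dashed lines are the medians over coding genes, 4.94 in MEF control and 4.02 in reprogramming control; the Arf start of Cdkn2a is at 4.53 and 2.76 in the MEF and reprogramming controls, and the start of Cdkn2b at 6.21 and 6.20.

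The 2 starts of Cdkn2a were read separately. Fold enrichment at the Arf start was 4.53 and 4.49 in the MEF groups (control, then KO) and 2.76 and 2.56 in the reprogramming groups. The Ink4a start, further inside the gene, had 4.29, 4.37, 3.65 and 3.80. Fold enrichments were lower in reprogramming over all intervals with a peak in both groups, by a median log2 of -0.22 between the controls and -0.21 between the KO groups. Relative to that shift, the Arf start was lower in reprogramming by log2 -0.49 in control and -0.60 in KO, and the Ink4a start stood at -0.01 and 0.00. The Arf start was the single one of the 8 start sites compared whose unshifted ratio passed the 1.5-fold rule, and it passed it in both genotypes. Over all start sites of coding genes, 16.9% were lower by this rule between the controls and 17.8% between the KO groups, so that 1 of 8 is near the background. After the shift the Arf start passed it between the KO groups alone (background 7.56%) and not between the controls (6.68%). The other starts, relative to the same shift, were higher between the controls by 0.22 at Cdkn2b, 0.06 at Cdkn1b, 0.13 at Trp53, 0.34 at Mdm2, 0.21 at the main Cdkn1a start and 0.47 at its upstream start. Without that shift the values were 0.00 at Cdkn2b, -0.01 at the main Cdkn1a start, -0.16 at Cdkn1b and -0.09 at Trp53, so that the sign at these starts depends on the scaling. The median over the 6 genes was -0.05 between the controls, against -0.25 over 14556 coding genes. The printed Arf promoter holds 45 CpG dinucleotides, more than 98.1% of the 32851 RefSeq promoters, and the Ink4a promoter 12. A KLF word is present in the Arf and absent from the Ink4a window, and 29.7% of all promoters hold one.

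Upstream of Arf, a site was open in reprogramming alone. The interval chr4:89296574-89298074, 1921 bp upstream of the Arf start, had no peak in either MEF group and a fold enrichment of 3.96 in both reprogramming groups. It held 2 KLF words, 1 OCT word, 1 SOX word and 1 AP-1 word. An intronic interval between the Arf and Ink4a starts was also higher in reprogramming, with 1.60 in MEF control, no peak in MEF KO, and 2.89 and 2.38 in reprogramming control and KO. On the other flank, the interval chr4:89257489-89258351, 16120 bp past the 3′ end of Cdkn2a in an intron of the lncRNA gene Gm12606, had 6.63 in MEF control and 6.56 in MEF KO and no peak in reprogramming. It was the most enriched site of the locus in MEFs and held 3 AP-1 words.

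At Cdkn1b the most enriched interval of all 5 loci was likewise open in MEFs alone. It lies 15816 bp upstream of the start (chr6:134903822-134904585), had 7.24 in MEF control and 7.64 in MEF KO, had no peak in reprogramming, and held 2 AP-1 words. A pair of weaker MEF-only sites lay in the Lockd transcript downstream, with 3.69 and 3.46 at one and 3.23 and 2.74 at the other. The start site itself, a site 2812 bp upstream and a site 6428 bp downstream were open in all groups, and the ratio of reprogramming to MEF farthest from 1 among them was at the upstream site (2.34 and 2.38 in MEF control and KO, 1.80 and 2.15 in reprogramming). Sites open in reprogramming alone at Cdkn1b had 2.58 and 2.39 in control and KO 18752 bp upstream, and 2.32 and 3.16 in the Lockd intron.

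At Cdkn1a, 8 of 10 intervals were open in all groups, and a site in Rab44 in reprogramming alone (2.22 in control and 2.28 in KO). The upstream start carries the p53-like element printed above, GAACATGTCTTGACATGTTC, just before the first annotated base of the transcript, and the peak over it had 1.86, 1.83, 2.21 and 2.17. A site 8495 bp upstream had the reprogramming to MEF control ratio farthest from 1 at the locus, with 2.29 in both MEF groups, 3.76 in reprogramming control and 2.77 in KO, so it passed the 1.5-fold rule in control and not in KO. The difference between the genotypes was not tested, as each group has 1 peak list. A site 11349 bp upstream, in an exon of Trp53cor1 (lincRNA-p21), a p53-induced noncoding RNA, had 3.30, 3.17, 2.53 and 2.33 and holds another p53-like element, AGGCAAGCCCGGGCAAGGCC.

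At Trp53, the interval over an Efnb3 exon 18781 bp upstream had 3.77 and 3.60 in MEF control and KO and 1.86 and 1.73 in reprogramming control and KO, a log2 ratio of -1.02 and -1.06. In Atp1b2, past the 3′ end of Trp53, a site with 5.18 and 5.20 in MEFs had 3.31 and 3.78 in reprogramming, log2 ratios of -0.64 and -0.46, which passed the 1.5-fold rule between the controls alone and in neither pair relative to the shift of all intervals. Another Atp1b2 site had 3.49 and 3.34 in MEFs, no peak in reprogramming control and 2.40 in reprogramming KO. A weak site in Wrap53 had 1.97 and 1.80 in MEFs and no peak in reprogramming. In Wrap53, by contrast, 2 intervals were open in both reprogramming groups alone, the listed one and another 14543 bp upstream (2.38 and 1.87). Efnb3 and Atp1b2 are neighbours with their own promoters, so these values need not concern Trp53.

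At Mdm2, some sites were higher and others lower in reprogramming. The interval 6676 bp upstream (chr10:117717434-117718689), which holds the p53-like element GGACATGTTTGTACATGTTT, had 3.61 and 3.69 in MEF control and KO and 1.94 and 1.78 in reprogramming, log2 ratios of -0.90 and -1.05. An intronic site of Cpm near the far edge of the window had 4.72 and 4.48 in MEFs and 2.31 and 2.24 in reprogramming. At the 3′ end of Mdm2 the ratio was in the other direction, but the peaks compared there were largely of different DNA. The reprogramming peaks, with 3.59 in control and 3.58 in KO, covered the end of the gene and were 1143 and 1276 bp wide, while the MEF peaks of the same merged interval, with 1.55 and 1.53, were 4570 and 4543 bp wide, lay past that end in Cpm, and overlapped them only in part. A further Cpm site 5152 bp past the gene end had 1.58 and 1.47 in MEFs and 3.07 and 2.95 in reprogramming. The highest MEF-only peaks were 18663 bp upstream in control (2.01, where reprogramming KO had 1.70) and in the gene body in KO (1.41). The start site and the site 10612 bp upstream differed by less than 1.5 times.

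Counted over the loci, 4 of 31 member intervals with a peak in both control groups were at least 1.5 times higher in reprogramming (background 9.66%) and 5 of 31 at least 1.5 times lower (24.9%). The higher ones include the interval at the 3′ end of Mdm2, where the peaks compared overlap only in part. In the KO groups it was 2 of 33 higher (10.0%) and 4 of 33 lower (23.8%). After dividing by the median ratio of all intervals, the counts between the controls were 4 higher and 3 lower, with backgrounds of 15.6% and 14.3%. Shares of peaks present on one side alone were below the background in each pair. Of 52 intervals with a peak in either control group, 9 were in reprogramming alone (36.2% over all intervals) and 12 in MEF alone (34.6%). Of 50 in the KO groups, 8 were in reprogramming alone (35.4%) and 9 in MEF alone (35.0%). The pairs of the second comparison use the same peak lists as those of the first.

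**Figure D4:**
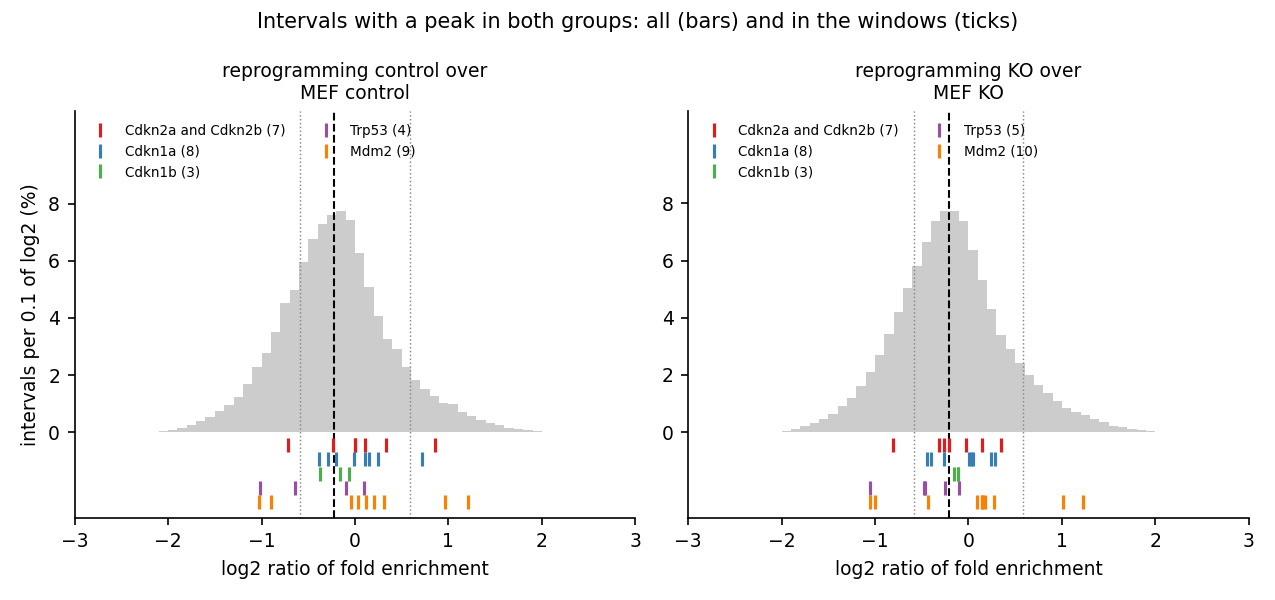
Log2 ratio of fold enrichment, reprogramming over MEF, for intervals with a peak in both groups. Grey bars are all intervals (percent per 0.1), coloured ticks are member intervals by locus with their number in the legend, the dashed line is the median of all intervals (-0.22 and -0.21) and dotted lines mark 1.5-fold; ticks at Mdm2 reach from -1.03 to 1.21 between the controls, the latter at the 3′ end, where the MEF and reprogramming peaks overlap only in part, while the 3 at Cdkn1b lie between -0.38 and -0.07.

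Motif words were counted in the 7 intervals of each pattern, a number too small to set them apart from the background. AP-1 words were in 4 of the 7 MEF-only member intervals, beside 40.3% of all MEF-only intervals, and in 1 of the 7 reprogramming-only ones (20.3%). KLF words were in 0 of 7 MEF-only (15.7%) and 5 of 7 reprogramming-only members (32.3%). OCT words were in 3 of 7 reprogramming-only members (6.22%) and SOX words also in 3 of 7 (22.6%), with 0 of 7 MEF-only members for each (4.96% and 13.6%). An exact p53 element was in 0 of 54 member intervals (0.0542% of all), and elements with at most 1 position off the consensus were in 4 of 54 (0.248%), 2 of them at Cdkn1a and 2 at Mdm2. A match is a description of the sequence and not a bound site.

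The wider p53 and senescence pathway was read from 50 other genes, with a KO to control direction that rests on the recovered size factors. In MEFs, 4 of their windows held a listed interval and all 4 intervals were more open in KO, near Phlda3, Apaf1, Rrm2b and Rb1. In reprogramming, 9 windows held 16 listed intervals, of which 15 were more open and 1 more closed in KO. These shares, 4 and 9 of 50, stand beside 2.97% and 8.47% of all coding genes. With TMM factors over the listed intervals, 1 of the 4 MEF intervals (at Rb1) was still higher in KO and 3 were lower. In reprogramming 5 of 16 were still higher and 11 lower. By edgeR's test, 1 higher and 2 lower MEF intervals passed the threshold. In reprogramming 0 of the 5 higher and 6 of the 11 lower ones passed it, the more closed interval among the 6. With raw totals over the listed intervals, 1 of 4 and 8 of 16 were higher in KO. Of these, 1 in MEFs and 1 in reprogramming passed the edgeR threshold, beside 1 and 2 of the lower ones. DESeq2 with the recovered size factors called 4 of 4 in MEFs, 13 of the 15 more open and the 1 more closed in reprogramming, which is no independent check, as the intervals were listed by DESeq2 on these same libraries. Window length was not matched.

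Among p53 regulators, Usp7, the deubiquitinase of Mdm2 and p53, had 5 listed intervals in reprogramming, all more open in KO. With TMM factors 1 of them stayed higher without passing the threshold (log2 0.84, edgeR adjusted p = 0.13). Another passed as lower in KO (log2 -0.39, edgeR adjusted p = 0.0097). The start-site fold enrichment of Usp7 was 3.01 in MEF control and 5.83 in reprogramming control. Hipk2, a kinase of p53, had 1 interval more closed (118.3 ± 6.54 normalised counts in control and 74.1 ± 1.01 in KO, SD, n = 3 each) and 1 more open, which TMM factors turned. Usp28, another deubiquitinase, had the lowest ratio of its list, with start-site values of 5.53 in MEF control and 3.04 in reprogramming control.

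Among p53 targets, Apaf1, the scaffold of the apoptosome, was the single gene listed in both contexts, and by the same interval 9418 bp upstream of its start. In MEFs it had 245.4 ± 11.3 normalised counts in control and 347.6 ± 23.6 in KO, and in reprogramming 191.0 ± 29.3 and 351.5 ± 22.4 (SD, n = 3 each). The log2 fold change of KO over control was 0.50 ± 0.07 in MEFs and 0.88 ± 0.09 in reprogramming (SE, edgeR), with -0.55 and -0.09 under TMM factors, and the difference between contexts was not tested. Bbc3, which encodes the apoptosis factor Puma, had 2 listed intervals in reprogramming, both more open, as did the stress-response gene Sesn1; TMM factors turned 1 of the 2 at each gene. Phlda3 and Rrm2b had 1 each in MEFs, both lower in KO with TMM factors. At the start sites Bax had 4.48 in MEF control and 2.22 in reprogramming control, the lowest ratio of the list, and Perp 3.55 and 5.35, the highest.

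Among cell cycle genes, Rb1, the retinoblastoma gene, had the listed interval with the largest relative change of the pathway, 3895 bp upstream of its start, from 13.0 ± 4.19 normalised counts in MEF control to 93.3 ± 13.0 in MEF KO (SD, n = 3 each), in the same direction under every scaling run. Cdk2 and Cdk6 had 1 listed interval each in reprogramming, both more open, by a log2 value of 1.32 each that was 0.35 with TMM factors and 0.61 with raw totals, where neither passed the test. Start-site values at the extremes of this list were 2.74 in MEF control and 3.29 in reprogramming control at E2f3, and 2.82 and 2.14 at Cdkn1c. None of the 6 regulators of the Cdkn2a locus, Polycomb genes among them, had a listed interval in its window in either context, and their start-site ratios ranged from log2 -0.41 at Ezh2 to 0.02 at Cbx7. For the secreted factors and the enzyme of senescence, Glb1 (senescence-associated β-galactosidase) had a listed interval over the start site in reprogramming, more open in KO (520.1 ± 19.8 normalised counts in control and 632.2 ± 14.8 in KO, SD, n = 3 each) but lower with TMM factors or raw totals and not past the threshold by DESeq2 (adjusted p = 0.0827), and the highest peak over its start was 4.87 in control and 4.37 in KO. Ccl2 had start-site values of 1.87 in MEF control and 3.65 in reprogramming control. Mmp3 was the single gene of the 50 without start-site peaks in all 4 groups, with peaks of similar height in MEF control and KO (4.10 in KO, log2 ratio 0.03) and none in either reprogramming group.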

How the data were processed

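The authors trimmed reads with cutadapt, aligned them to GRCm38 with BWA, removed duplicate, mitochondrial and blacklisted reads, and used MACS2 for broad peaks, deposited as 1 merged list a group. The deposited peak lists give each peak's fold enrichment, a ratio over background, and its -log10 q-value. The authors counted reads over the union of peaks and compared KO with control by DESeq2, and the deposited tables hold the raw count and the normalised count (a signal, the count divided by a size factor) of each library at intervals past an adjusted p of 0.05. The deposited log2 fold changes, their standard errors, Wald statistics (a score) and p-values of that comparison were not used. Replicate numbers came from the sample titles.

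Peaks of the 4 lists were merged where they overlapped or touched, which gave 273256 intervals, and the highest peak stood for a group. Member genes, gene lists and rules were chosen with earlier results of these data known. Named were each member and listed interval, start-site peaks, the ratio farthest from 1 and the highest single-group peak per window and pair, and pathway genes with a listed interval or an extreme start-site ratio. Counts were tested with edgeR 4.0.16 (quasi-likelihood, two-sided, Benjamini-Hochberg) in R 4.3.3 with size factors recovered as raw over normalised count. The number of merged intervals was taken as the number of tests in place of one recovered from the deposited p-values. DESeq2 1.42.0 was an alternative. The test was tried on simulated counts. No filter on low values was applied, so all 54 member intervals were used. Coordinates count from 1. The main test did not pair control and KO libraries by replicate number, and the labels do not say whether shared numbers mark a pair. A gene of the pathway list and a sequence are not reported here.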

Additional observations from a re-analysis of the deposited data

How the results depend on the processing

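The KO to control difference at the Trp53 upstream interval kept its direction and an adjusted p under 0.05 with DESeq2, with a minimum of 50 reads in every library and without each library in turn (log2 0.70 to 0.85). Since DESeq2 on these same 6 libraries selected it, passing again is largely set by that selection and is no sign of stability. It rests on the recovered size factors. With raw library totals over the listed intervals it was 0.073 and no longer past the threshold, and with TMM factors over them it reversed to -0.19, since both take the listed intervals, most of them more open in KO, as their baseline. With the replicate number as a block it was 0.79. Whether replicate numbers pair the samples was not settled. Deviations of same-numbered control and KO libraries correlated by 0.04 to 0.21 in MEFs and 0.04 to 0.10 in reprogramming. For different numbers the range was -0.20 to 0.08 in MEFs and -0.08 to 0.0045 in reprogramming. Each reprogramming library correlated best with its own number, and in MEFs all but KO replicate 3 did. The block lowered edgeR's common dispersion from 0.0026 to 0.0002 in MEFs and from 0.0018 to 0.0007 in reprogramming. It changed no call. The count of listed intervals was 0 in MEFs and 1 in reprogramming at an adjusted p under 0.01 and with windows of 10 and 50 kb.

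Windows of 50 kb held 87, 81, 89 and 88 peaks in MEF control, MEF KO, reprogramming control and reprogramming KO, against 44, 42, 43 and 41, and a fold enrichment of at least 3 left 19, 19, 18 and 13. At 2-fold, 1 interval was higher (3.67% of all) and 2 lower (8.29%) in reprogramming control, and 2 were higher (3.57%) and 2 lower (7.56%) in reprogramming KO. The 1 higher, also among the 2 in KO, is the 3′ end of Mdm2, where the peaks overlap only in part. Centring left 3 lower between the controls. With a reciprocal overlap of 50%, intervals in KO alone numbered 5 in MEFs and 7 in reprogramming, in control alone 6 and 6, in reprogramming alone 16 (control) and 18 (KO), and in MEF alone 19 and 19. With a -log10 q of at least 5 these were 0 and 0, 1 and 1, 5 and 5, and 7 and 4. Neither rule was run over all intervals, so these counts have no background share and cannot be read as a result about the members. Pathway genes with a listed MEF interval numbered 9 of 50 at 50 kb (5.10% of coding genes). Allowing 1 position off the p53 consensus, chosen after seeing the data, gave 4 intervals in place of 0. All 64 alternatives for start-site ratios moved by less than 1.5 times, but this was set in advance and is no sign of stability. Overlap-weighted means equalled the main values, and the other alternative only subtracted a median log2 ratio of -0.22 or one closer to no change. That shift still ended the call at the Arf start between the controls. Peak values have no replicates, so differences between merged lists carry no error.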
